A study of Mus musculus with 8 samples.

Results

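The regions described here are stretches of chromatin inside protein-coding genes that carried a peak of acetylated lysine 27 of histone H3 (H3K27ac) in all 4 mouse breast tumors profiled by chromatin immunoprecipitation and sequencing (ChIP-seq). Merging overlapping or adjoining peak intervals over the 4 tumors gave 89238 autosomal union regions. A union region was kept if it was under 8000 bp wide, held a peak of every tumor, overlapped the body of a protein-coding gene (GENCODE M21, mm10) and did not reach within 1 kb of the transcription start site (TSS) of such a gene. This left 13621 shared intragenic regions of the 34078 regions with a peak in every tumor. A further 9812 shared regions of the same width range lay at a TSS and 10054 lay outside genes, and both sets serve for comparison. Members were thus chosen by peak presence in every tumor, by width and by position, so their presence in every tumor is not a finding. The intervals are widths only, so the graded value of a region in a tumor is its covered length, the number of its bases inside that tumor's peaks.

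All tumors arose in Balb/c mice that carried the polyoma middle T oncogene (PyMT), which is driven by the MMTV promoter in mammary epithelium, and lacked Rag1, so that the hosts had no T or B cells of their own. At the age of 4 weeks every mouse received wild-type CD4+ T cells by injection, and tumors were taken at terminal size. The 2 control tumors had the genotype PyMT;Rag1KO and the 2 test tumors K14-TSLPtg;PyMT;Rag1KO, in which the cytokine TSLP is made under the keratin 14 promoter, a promoter of basal epithelium and skin. By title, the controls are tumors and the test samples are cysts, and each tumor came from a separate mouse. Control 1 and control 2 had 69861 and 67850 intervals, and test 1 and test 2 had 65763 and 59762. Read depth is unknown from the peak lists, and a more deeply sequenced tumor can have more and wider peaks. In these bulk tumors, fewer cells of a type and less acetylation per cell cannot be told apart.

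Acetylation of lysine 27 marks promoters and enhancers in use, and it is laid down by the acetyltransferases p300 and CBP, which transcription factors recruit. Enhancers often lie in introns, where they may act on the gene around them or on a neighbor over a distance, so a region inside a gene is not thereby assigned to it. In mammary epithelium such elements are bound by factors of the RUNX, ETS, NFI, GRHL, TEAD and AP-1 families.

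To show what these elements look like in sequence, the central 300 bp of 3 members are given, credited to Runx1 (a luminal transcription factor), Krt19 (a luminal keratin) and Tgfbr3 (betaglycan, a TGF-beta co-receptor that belongs to the growth factor receptor and EMT lists). Each was the member of its list with the most motif matches. They are the plus strand of the GRCm38 (mm10) reference sequence from RefSeq, which comes from a C57BL/6J mouse and not from the Balb/c tumors, at chr16:92725548-92725847, chr11:100139489-100139788 and chr5:107268318-107268617. Capitals mark matches to the 13 motifs listed with the sequence results.
Runx1: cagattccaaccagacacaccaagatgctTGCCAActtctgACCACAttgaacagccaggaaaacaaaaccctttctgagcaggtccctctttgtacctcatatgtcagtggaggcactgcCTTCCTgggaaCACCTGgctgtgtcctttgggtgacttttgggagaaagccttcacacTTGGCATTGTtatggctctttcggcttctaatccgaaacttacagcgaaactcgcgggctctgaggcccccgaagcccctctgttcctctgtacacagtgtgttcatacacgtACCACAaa
Krt19: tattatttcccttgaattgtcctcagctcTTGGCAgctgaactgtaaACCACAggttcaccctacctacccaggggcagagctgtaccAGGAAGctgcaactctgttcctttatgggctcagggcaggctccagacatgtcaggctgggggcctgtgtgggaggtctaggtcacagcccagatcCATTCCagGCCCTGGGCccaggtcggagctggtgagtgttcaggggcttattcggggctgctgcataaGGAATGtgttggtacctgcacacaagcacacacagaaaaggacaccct
Tgfbr3: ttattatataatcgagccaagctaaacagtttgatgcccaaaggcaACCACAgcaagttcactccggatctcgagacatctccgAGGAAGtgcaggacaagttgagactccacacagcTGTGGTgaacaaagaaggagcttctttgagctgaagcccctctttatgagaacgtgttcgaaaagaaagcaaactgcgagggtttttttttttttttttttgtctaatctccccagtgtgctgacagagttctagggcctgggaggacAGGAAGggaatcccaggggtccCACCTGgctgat
The Runx1 window lay in intron 2 of 7, 100 kb from the TSS, and held 7 matches, among them 2 to the NFI motif, 1 of which overlapped a SOX match, and 2 to the RUNX motif. The Krt19 window lay outside the gene, past its 3′ end and 9.03 kb from the 5′ end of the record, since only the edge of that member overlapped the gene body. It had 6 matches that included 2 to the TEAD motif and 1 to the AP-2 motif. The Tgfbr3 window lay in intron 1 of 16, 21.2 kb from the TSS, and held 2 RUNX and 2 ETS matches among its 5. A member window held a median of 2 matches, so these are the motif-rich end of the set. In the region around the Runx1 window, peaks covered 1299 and 1576 bp in control tumors 1 and 2 and 1874 and 1384 bp in test tumors 1 and 2, and the groups overlapped. At Krt19 the covered lengths were 2554, 1625, 2725 and 1393 bp in the same order, again with overlap. At Tgfbr3 they were 5695, 5824, 4152 and 3128 bp, so that both control tumors covered more (log2 difference -0.68), but the adjusted p of 0.973 (limma) did not pass.

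Members were mostly narrow, and their outer parts differed among tumors. Their median width was 1672 bp (quartiles 1098 and 2564 bp). Of all members, 20.8% were under 1000 bp wide, 40.7% were 1000 to 2000 bp, 29.7% were 2000 to 4000 bp and 8.91% were 4000 bp or wider. The bases inside peaks of all 4 tumors, called the core, made up 50.5% of member bases, with a median of 45.2% per member, and 3.87% of members had no base that all 4 tumors covered. Within a member the tumor with the widest coverage covered a median of 1.84 times the bases of the tumor with the narrowest. The members closest below the width limit were in Pecam1 (7989 bp), Bmf (7982 bp) and Palmd (7976 bp), and the shared intragenic regions closest above it were in Orai1 (8006 bp), Cdkal1 (8044 bp) and Nupr1 (8046 bp). Peaks covered 6655 to 7988 bp of the Pecam1 region and 6558 to 8006 bp of the Orai1 region. In all, 227 shared intragenic regions were too wide for the set.

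To ask whether the groups differed over members as a whole, covered length was compared over tumors. The median covered length per member was 1281 bp in control 1, 1186 bp in control 2, 1304 bp in test 1 and 1113 bp in test 2. The highest and the lowest value were thus both in test tumors, and the groups overlapped. The mean was 1560 ± 81.4 bp in control and 1541 ± 155 bp in test tumors (SD, n = 2 each), a difference of -19.8 bp (exact permutation test, two-sided, p = 1). Test 1 covered the most bases in 32.0% of members, and test 2 the fewest in 39.5%. Members took a near-constant part of each tumor's acetylated genome, 30.6% of all peak bases in both control tumors, 31.3% in test 1 and 30.8% in test 2 (exact p = 0.333, the smallest that 2 against 2 tumors allow). Caller peaks joined per member numbered 1.86 and 1.88 in control tumors and 1.79 and 1.71 in test tumors, so both test tumors were lower (exact permutation p = 0.333). Across members, Spearman correlations of covered length between tumors, as a description over 13621 regions that share the 4 libraries, were 0.84 to 0.88 among control 1, control 2 and test 1, and 0.72 to 0.73 for each of the 3 with test 2. Test 2 thus stood apart from the other 3 tumors, including test 1, and the medians of the gene lists are given without it as well.

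**Figure D1:**
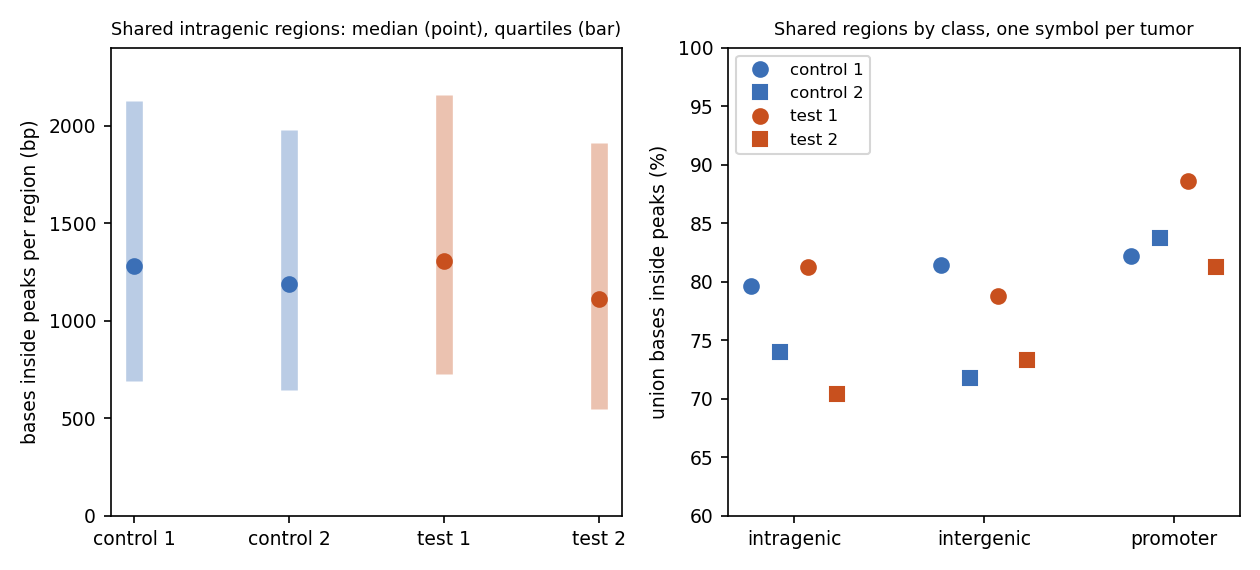
Left, bases inside peaks per shared intragenic region (bp), with the median of each tumor as a point and the quartiles as a bar. Right, percent of union bases inside peaks in shared intragenic, intergenic and promoter regions, 1 symbol per tumor (vertical axis from 60 to 100). Test 1 has the highest and test 2 the lowest intragenic values (81.2% and 70.4%), and in each tumor the promoter value lies above the intragenic one.

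Members were covered less completely than shared promoter regions in every tumor, with no common direction against shared intergenic regions. Peaks covered 79.6% and 74.0% of member bases in control tumors 1 and 2, and 81.2% and 70.4% in test tumors 1 and 2. In promoter regions the values were 82.2%, 83.7%, 88.6% and 81.3%. Members were lower in 4 of 4 tumors, by 7.64 ± 3.66 points (SD, n = 4 tumors, exact sign-flip permutation test, two-sided, p = 0.125, the smallest possible). Against intergenic regions (81.5%, 71.8%, 78.8% and 73.3%), members were lower in 2 of 4 tumors, with a mean difference of -0.0256 ± 2.74 points (SD, n = 4, exact permutation p = 1). Promoter regions also had a larger core (67.0% of bases) and a smaller ratio of widest to narrowest (1.33), while intergenic regions had 51.3% and 1.81. The difference between groups in percent of member bases covered was -0.973 points (exact permutation p = 1).

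To find where in a gene members lay, the midpoint of the core was placed on the gene models. It was in an intron in 11827 members (86.8%), in a coding exon in 3.65%, in an untranslated exon in 5.10% and outside the longest coding transcript of the gene in 4.42%. In 1.43% of members it lay beyond the gene body, which the region overlapped only in part. The first intron held 4314 members (31.7%). Among members in introns of genes with more than 1 intron, 35.5% were in the first, which made up on average 31.3% of the intron length of those genes. The median distance from the TSS was 35.1 kb, with quartiles of 13.4 and 87.2 kb. Along the gene, 22.2% of members lay between 20 and 40% of its length and 17.2% in the last 20%. Density ranged from 11.4 members per Mb of gene body on chromosome 6 to 17.96 on chromosome 11. The core was 50.4% of bases in first introns, 49.8% in later introns and 54.3% in untranslated exons.

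A part of the members sat at other annotated starts. The rule used the outermost 5′ end of each gene record, and 3243 members (23.8%) came within 1 kb of the start of some other annotated transcript, 2669 of them at another start of a protein-coding gene and 563 at the start of a long noncoding RNA gene. These members were wider (median 1901 against 1618 bp), had a larger core (56.8% against 48.2%) and a smaller ratio of widest to narrowest tumor (1.60 against 1.93) than members away from any start. In core and ratio they lay between the other members and the shared promoter regions.

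Sequence was described in the central 300 bp of the 13094 members with a core. Median GC content was 48.7%, near that of shared intergenic regions (48.0%), below that of shared promoter regions (60.3%) and above that of windows 5 kb away in the same gene and outside every union region (45.0%). The median ratio of observed to expected CpG was 0.223 in members and 0.697 in promoter regions. A GC content over 50% with a CpG ratio over 0.6 was met by 5.06% of members, by 17.1% of those near another transcript start and by 1.22% of the others. Members were thus as CpG-poor as shared intergenic regions (ratio 0.227), and those near another start held most of the exceptions.

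Motifs were searched as exact letters on both strands. The motif of AP-1 was read as TGANTCA, that of the ETS family as AGGAAG, and that of RUNX factors as TGTGGT. Hippo pathway TEAD factors were given GGAATG and STAT factors TTCNNNGAA. For NFI the letters were TTGGCA, for forkhead proteins TGTTTAC and for GATA proteins AGATAA. Grainyhead-like proteins (GRHL) had AACCGGTT, AP-2 had GCCNNNGGC and SOX proteins had ACAATG. The E-box of ZEB and Snail was CAGGTG and the GC box GGGCGG, and matches of different motifs may overlap. The AP-1 letters, bound by Fos and Jun dimers, were in 11.1% of member windows, 12.6% of shared intergenic, 4.39% of shared promoter windows and 8.41% of windows 5 kb away. The ETS letters were in 42.6% of members, 42.9% of shared intergenic windows, 32.9% of promoter windows and 31.3% of windows 5 kb away. For the NFI letters the shares were 19.8%, 20.7%, 11.1% and 14.4% in the same order. AP-1, ETS and NFI letters were thus more frequent in members than in promoter windows and windows 5 kb away. They were not more frequent than in shared intergenic windows. The AP-2 letters were in 12.2% of members, 10.9% of intergenic and 23.0% of promoter windows, and 5.79% of windows 5 kb away. Over the whole core, which differs in width between sets, AP-1 letters were in 25.9% of members and 21.2% of promoter regions. The GC box, bound by Sp factors, was in 8.77% of members, 9.16% of intergenic and 42.8% of promoter windows, and 3.93% of windows 5 kb away. It was in 18.3% of members near another start against 5.74% of the others. The GATA letters were less frequent in members (11.2%) than 5 kb away (16.8%), and the RUNX letters had nearly the same share in both (21.5% and 22.8%). In all 31387 RefSeq promoter windows of 300 bp on the autosomes (GRCm38), the shares were 7.85% for AP-1, 35.1% for ETS, 14.1% for NFI and 36.0% for the GC box. The GRHL letters were rare everywhere (0.16% of members). The TEAD letters were in 17.3% of members, 11.8% of promoter regions and 15.0% of windows 5 kb away. A match is a description of letters and not a bound site.

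**Figure D2:**
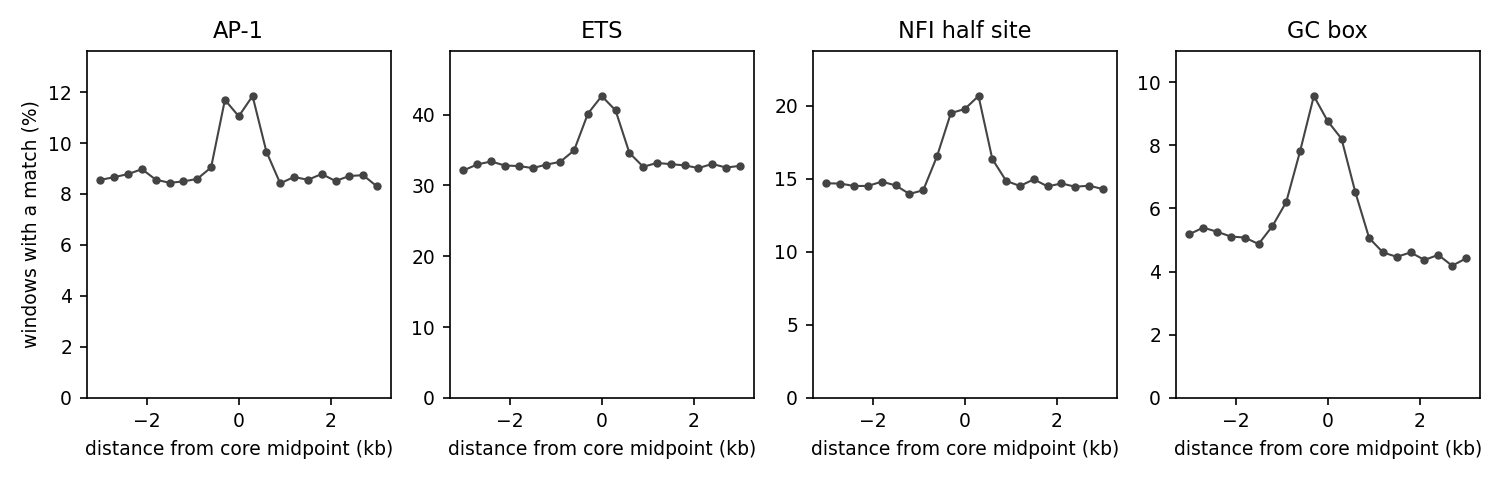
Percent of 300 bp windows with at least 1 match (vertical axis from 0, a different range in each panel) against distance from the core midpoint of members (kb, negative values toward the 5′ end of the gene), for AP-1, ETS, NFI and the GC box. The ETS share is 42.6% at the midpoint and 32.1% at -3 kb, and in the AP-1, ETS and NFI panels the highest shares lie within 300 bp of the midpoint.

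The raised motif shares were local to the core. Oriented by the strand of the gene, AP-1 letters were in 11.7% of windows centered 300 bp upstream of the midpoint, 11.1% at it and 11.8% at 300 bp downstream, and in 8.55% at 3000 bp upstream. NFI letters were in 20.7% of windows 300 bp downstream and in 14.3% at 3000 bp downstream. The GC box was in 9.56% at 300 bp upstream and in 5.19% at 3000 bp upstream. Members with higher coverage in both test tumors and those with higher coverage in both control tumors had near-equal AP-1 shares (10.7% and 10.9%), and 7.58% of the former against 3.70% of the latter met the GC and CpG thresholds. The difference between these last shares was not tested.

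To find single members that differed between groups, log2 covered length was fitted with limma over all 34078 regions with a peak in every tumor. No region passed an adjusted p under 0.05 in either direction, among members or overall (0 members, background 0%, smallest adjusted p 0.973). At an unadjusted p under 0.05, 410 members (3.01%) had higher coverage in test tumors and 361 (2.65%) in control tumors, beside 2.3% and 2.11% of all regions. Which side had more unadjusted calls changed with the tumors used and with scaling. The counts were 566 and 1983 without test 1, 311 and 400 without test 2, 470 and 127 without control 1 and 259 and 139 without control 2. They were 374 and 420 with each tumor centered and 378 and 430 after quantile normalization. The median log2 difference, test minus control, was -0.01 over members and 0.02 over all regions. Both test tumors exceeded both control tumors in 2378 members (17.5%, background 19.1%), and both control tumors exceeded both test tumors in 2004 (14.7%, background 13.3%). These shares were near the background. Shared promoter regions had 24.7% and 10.1%, and shared intergenic regions 16.1% and 14.6%. Without test 2 the median over members was 0.10, and without control 2 it was -0.07.

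The members described next had the largest differences among those whose groups did not overlap and whose mean covered length was at least 1000 bp. In Ano1, a calcium-activated chloride channel, a region of intron 11 of 24 (chr7:144634330-144638494) was covered over 378 and 304 bp in control and 2092 and 4037 bp in test tumors (log2 difference 3.10, SE 0.43). It came within 1 kb of another transcript start. In Gabrg3, a GABA receptor subunit, intron 3 of 9 held 165 and 313 bp in control and 1359 and 2596 bp in test tumors. Fam107a, an actin-associated protein, had 527 and 195 bp in its first intron against 1898 and 2665 bp. In each of these, narrow control peaks faced test peaks of over 1 kb. Mark3, a microtubule-regulating kinase, had 221 and 324 bp against 1607 and 1877 bp (log2 difference 2.70, SE 0.38). Slc5a11, a sodium and inositol cotransporter, had 165 and 771 bp in control and 1148 and 3455 bp in test tumors.

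In the other direction, a region of intron 8 of 9 of Tnfrsf1b, the TNF receptor TNFR2 of immune cells (chr4:145220916-145222967), was covered over 2052 and 1964 bp in control and 262 and 257 bp in test tumors (log2 difference -2.95, SE 0.31, unadjusted p 0.00054 in the limma fit). Its tumors agreed closely within groups, but no base was shared by all 4. The Tprg region had 7687 and 5381 bp against 3415 and 218 bp, with test 2 far below the other tumors. Clec2g, a C-type lectin, had 2131 and 1392 bp in control and 376 and 161 bp in test tumors. Dock10 had 2893 and 2531 bp against 200 and 949 bp, and Trpm3, a cation channel, 2479 and 2034 bp against 518 and 255 bp. All 10 regions had an adjusted p of 0.973 (limma).

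**Figure D3:**
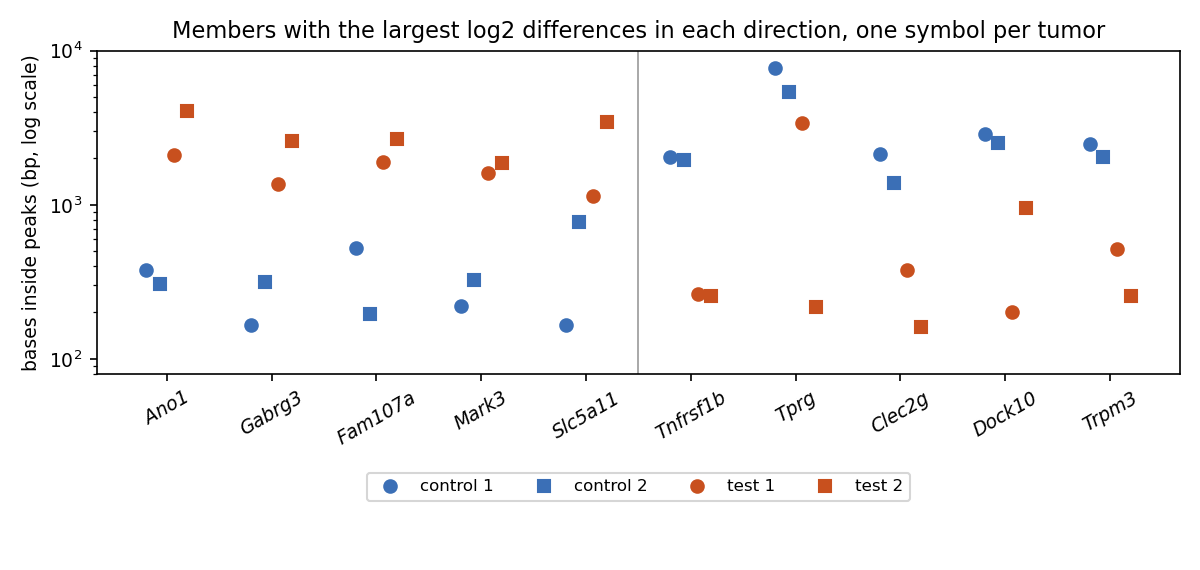
Bases inside peaks (bp, log scale) in each of the 4 tumors for the 5 members with the largest log2 difference in each direction among members whose groups did not overlap. On the left both test tumors lie above both control tumors, and on the right both control tumors lie above both test tumors, with Tnfrsf1b at 2052 and 1964 against 262 and 257 bp.

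Each member was credited to a host gene, the gene it overlapped most, and to the shorter gene in a tie. The 13621 members lay in 5246 of 20807 autosomal protein-coding genes (25.2%), with 1 member in 2619 of them and at least 10 in 176. Genes with at least 5 members held 45.1% of all members. Genes with members were long (median 50.7 kb, against 12.0 kb without), and among genes of 100 kb or more 61.7% held a member. A TSS peak in every tumor was present in 70.9% of genes with members and in 44.1% of the others, and within the length band of 20 to 50 kb a member was found in 39.0% of genes with a TSS peak in every tumor and 18.9% of genes with none. In 1058 genes with members no tumor had a peak at the TSS of the gene record, which need not be the start that the tumor used. Nfib, Pde4d, Tjp1, Atf3, Lifr, Hdac7, Kat6b and Trp63 were among them. Among 749 genes with at least 5 members, summed covered length was higher in both test tumors in 120 (16.0%) and in both control tumors in 115 (15.4%). Over all shared regions taken singly, these shares were 19.1% and 13.3%.

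The genes with the most members were long. Etv6, an ETS-family repressor, held 32 members whose covered lengths summed to 60190 and 53958 bp in control and 60138 and 51036 bp in test tumors. Rad51b, a homologous recombination gene, held 30 (87164, 65149, 75392 and 50621 bp), and Auts2, a chromatin-associated neurodevelopmental gene, 28 (49698, 42567, 47566 and 52221 bp). The groups overlapped in all 3 genes. Pde4d, a cAMP phosphodiesterase, held 26 members with 31721 and 25073 bp in control and 37634 and 33475 bp in test tumors, so both test tumors were higher, by 0.33 on the log2 scale. Of its 26 members, 10 were higher in both test tumors and 1 in both control tumors, beside 19.1% and 13.3% of all regions. Nfib, an NFI factor of the mammary lineage, Nsmce2, a SUMO ligase of the SMC5/6 complex, and Shroom3, an apical actin regulator, held 24 each, with overlapping groups. Of the RefSeq spans, which are shorter for these genes, that of Nfib held 17 of its 24 members and that of Pde4d 22 of its 26. Nfib ranged from 39807 bp in test 2 to 77413 bp in test 1. A record named Gm20388 was credited with 60 members, but it spans 4435 kb across many genes and RefSeq has no gene of that name, so these regions are better described as having no certain host. Over all members whose host symbol is in RefSeq, 97.1% lay within the RefSeq span of that gene.

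The genes of at least 20 kb with the highest density of members were mostly short. Vps37c, a subunit of the ESCRT-I sorting complex, had 19.3 members per 100 kb, Bmf, a pro-apoptotic BCL2 relative, 19.1, Tkt, the transketolase of the pentose phosphate pathway, 19.0, Ctdsp2, a nuclear phosphatase, 18.8, and Cuedc1 18.7. Cuedc1 had 18 members, 14 of them in its first intron. Its sums were 29419 and 31758 bp in control and 33379 and 25576 bp in test tumors, and in each of these 5 genes the groups overlapped.

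Gene lists were read against the same background shares. None of their members passed the limma test, so counts of members whose groups did not overlap are descriptions. With each tumor centered on its median, the background shares were 17.6% for both test tumors higher and 14.8% for both control tumors higher, and centered counts are given where they moved by over 1.5 times. Of 29 luminal transcription factors, 18 held 88 members, of which 12 (13.6%) had higher coverage in both test tumors and 11 (12.5%) in both control tumors, with a median log2 difference of -0.15. Centered, the counts were 13 (14.8%) and 17 (19.3%). Besides Nfib these were led by Nfia (12 members), with 15119 and 13580 bp in control and 16731 and 15831 bp in test tumors, and by Trps1, a GATA-type repressor of luminal tumors, with 14131, 13491, 18722 and 6724 bp. Nfia was higher in both test tumors, and in Trps1 test 1 was highest and test 2 lowest. Without test 2 the median of the list was 0.20 and without test 1 it was -0.39, so its direction rested on which test tumor was kept.

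Of 33 milk and secretory genes, 16 held 37 members, of which 12 (32.4%) were higher in both test tumors and 2 (5.41%) in both control tumors, with a median log2 difference of 0.17. Acaca, the acetyl-CoA carboxylase of fatty acid synthesis, had 7 members with 8980 and 7723 bp in control and 11404 and 10275 bp in test tumors, and both test tumors were higher. Elovl5, a fatty acid elongase, had 5 members with 6107, 6286, 5646 and 6477 bp, and Acacb, the mitochondrial carboxylase, 4 with 4158, 3594, 4800 and 3694 bp, both with overlap. The median was 0.00 without control 2 and 0.38 without test 2.

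Epithelial adhesion genes (20 of 36 with 76 members) had 18 members (23.7%) higher in both test tumors and 8 (10.5%) in both control tumors, with a median of 0.06, or 0.16 without test 2. Pard3, a polarity scaffold, had 13 members with 22185 and 14983 bp in control and 23309 and 19805 bp in test tumors. Itga6, a laminin-binding integrin, had 12 (27911, 27112, 28453 and 19337 bp), and Tjp1, a tight junction scaffold, 10 (12024, 12875, 12270 and 14578 bp). The groups overlapped in all 3. Only 5 of the 12 Itga6 members lay within the shorter RefSeq span of the gene. Without control 2 the median was -0.01.

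Of 58 genes of epithelial to mesenchymal transition (EMT), a list drawn up with the study's account of these tumors known and so not independent of them, 25 held 78 members. In 25 members (32.1%) both control tumors were higher and in 13 (16.7%) both test tumors, with a median log2 difference of -0.17. The genes with the most members did not all go one way. Notch2, a receptor of the Notch pathway, had 12 members with 23344 and 19923 bp in control and 24244 and 22206 bp in test tumors. Tgfb2, a TGF-beta ligand, had 9 with 19151 and 20379 bp against 21624 and 22215 bp, so both test tumors were higher, and Tgfbr3 had 10 with 35524 and 33295 bp against 34578 and 19170 bp. The members higher in control tumors lay largely in other genes, named here after their values were seen. Prrx1, a mesenchymal homeobox factor, had 5 of 5 members higher in both control tumors, with sums of 8971 and 8045 bp against 5076 and 2701 bp. Zeb2, a repressor of E-cadherin, had 3 of 4 (10024 and 8335 bp against 6445 and 5552 bp), and Col4a2, a basement membrane collagen, 4 of 5 (6279 and 5980 bp against 3943 and 2800 bp). In these 3 genes the sums did not overlap between groups. Without test 2 the median of the list turned to 0.07, with 33 members (42.3%) higher and 26 (33.3%) lower in test 1 than in both control tumors, beside 43.1% and 23.8% of all regions. Without test 1 it was -0.48, with 18 (23.1%) higher and 46 (59.0%) lower in test 2, beside 33.4% and 39.9% of all regions.

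The marker genes of other cell types moved in part with the same contrast. TSS peaks were present at 10 of 10 luminal markers in every tumor. Of 6 fibroblast markers, 2, 3, 1 and 0 had a TSS peak in control 1, control 2, test 1 and test 2, and of 6 endothelial markers 3, 2, 2 and 0. Myeloid markers had 4, 4, 3 and 3 of 6, T cell markers 1, 2, 1 and 0 of 6 and myoepithelial markers 4, 1, 3 and 0 of 6. The fibroblast, endothelial, T cell and myoepithelial counts were lowest in test 2, the hepatocyte markers had none in any tumor, and 1 of 4 neuronal markers had a peak in control 2 alone. Yet 3 of the 4 neuronal genes, which are long (median 245 kb), held 5 members. Holding a member is thus no sign by itself that the marked cell type was present. Among members, Pecam1, an endothelial adhesion molecule, had 5 with 19137 and 15310 bp in control and 14826 and 12083 bp in test tumors, with both control tumors higher. Trp63, the basal and myoepithelial factor p63, had 9 with 21172 and 20424 bp against 19270 and 11382 bp. The 8 members of luminal marker genes had a median log2 difference of 0.18, which was -0.10 without control 2 and -0.05 without test 1. Of these 8 members, 3 (37.5%) were higher in both test tumors and 1 (12.5%) in both control tumors, beside 19.1% and 13.3% of all regions. Those in Esrp1, an epithelial splicing regulator, had 3058 and 2658 bp against 4961 and 5023 bp, and that in Epcam, an epithelial adhesion molecule, 1230 and 1103 bp against 1364 and 1278 bp. Both test tumors were higher in these genes, while the sums of Cdh1 (2490, 2007, 2534 and 1616 bp), Krt19 (6161, 3891, 6085 and 3426 bp) and Krt18 (758, 624, 625 and 1294 bp) overlapped between groups. Summed over the 6 endothelial members, covered length was 20.3 and 16.4 kb in control and 16.0 and 13.05 kb in test tumors, and over the 2 fibroblast members, both in Pdgfra, 2.55 and 1.94 kb against 2.05 and 0.65 kb. The 5 myeloid members summed to 4.20 and 3.84 kb in control and 3.99 and 2.43 kb in test tumors. For the 2 T cell members the sums were 0.56 and 0.85 kb against 0.80 and 0.97 kb. The groups overlapped in the fibroblast, myeloid and T cell sums. The part of cell composition in the EMT values was not tested.

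**Figure D4:**
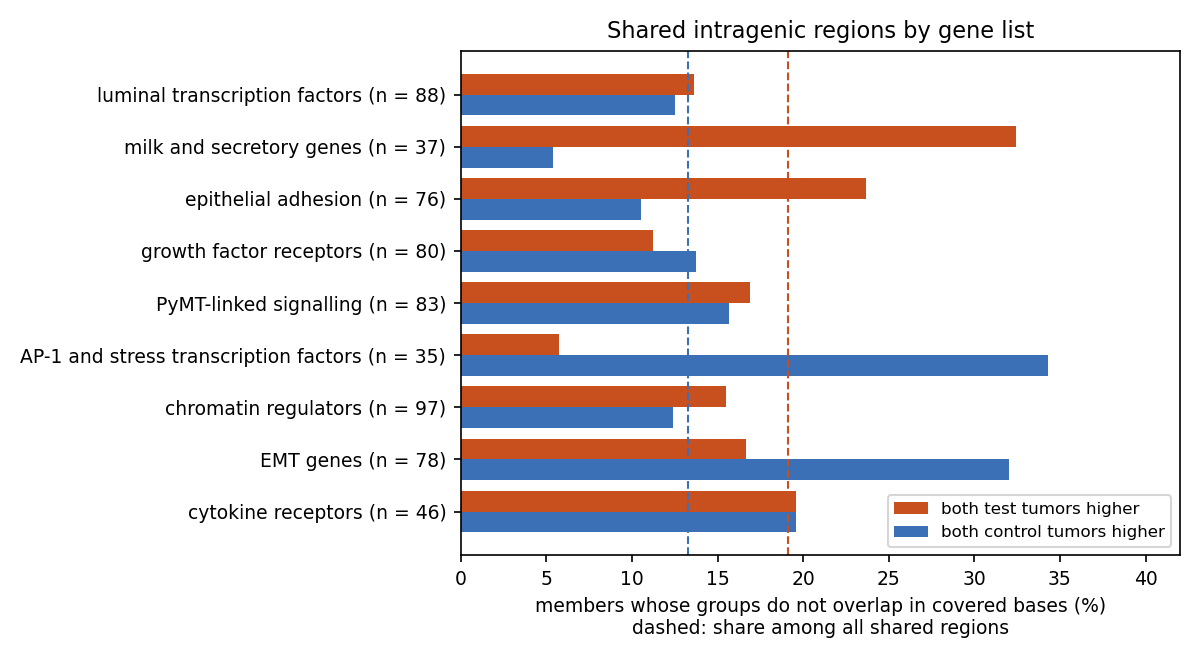
Percent of the shared intragenic regions of each gene list (number of members in brackets) in which both test tumors or both control tumors had the higher covered length. Dashed lines give the same shares over all 34078 shared regions, 19.1% and 13.3%. Milk and secretory genes reach 32.4% on the test side, and AP-1 and stress factors and EMT genes reach 34.3% and 32.1% on the control side.

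Of 32 growth factor receptors, 21 held 80 members, with 9 (11.3%) higher in both test and 11 (13.8%) in both control tumors and a median of -0.12. Centered, the counts were 8 (10.0%) and 18 (22.5%). Igf1r, the IGF1 receptor, had 10 members with 16365 and 15244 bp in control and 11605 and 7883 bp in test tumors, so both control tumors were higher, by 0.72 on the log2 scale. Egfr had 8, all in its first intron, with 12556, 9852, 10598 and 10450 bp. The median of the receptors was 0.07 without test 2 and -0.29 without test 1. Credited to every gene body they overlapped, the members of this list numbered 121, with 18 and 20 on the test and control side, and the record of Fgfr2, which spans 2961 kb against 104 kb in RefSeq, held only 1 of its 3 host-credited members within the RefSeq span. PyMT-linked signalling genes (21 of 35 with 83 members) had 14 members (16.9%) higher in both test and 13 (15.7%) in both control tumors and a median of -0.04, which was 0.05 without test 2 and -0.10 without test 1. Centered, these counts were 11 (13.3%) and 19 (22.9%), so the control side became the larger. Gab1, an adaptor for PI3K, had 12 members, all in its first intron, with 32061 and 27036 bp in control and 30908 and 27392 bp in test tumors. Wwtr1, the Hippo pathway effector TAZ, had 11 (17049, 15030, 16243 and 12062 bp) and Pik3r1, the PI3K regulatory subunit, 10 (19020, 15296, 21949 and 15759 bp), and the groups overlapped in all 3 genes.

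Of 24 AP-1 and stress transcription factors, 9 held 35 members, of which 12 (34.3%) were higher in both control tumors and 2 (5.71%) in both test tumors, with a median of -0.20. Of these 12, 8 lay in Bach2, a repressor that binds AP-1-like sites in lymphocytes, with 17 members and sums of 29154 and 27819 bp against 26300 and 23577 bp. Atf3 had 5 members (5986, 6309, 4792 and 7374 bp) and Nfkb1 had 4 (8019, 6430, 9026 and 4527 bp), with overlap. Only 1 of the 5 Atf3 members lay within its shorter RefSeq span, so the host of the others is uncertain. The median of the list ranged from -0.28 to -0.11 over the 4 fits that each left out 1 tumor. Chromatin regulators (20 of 30 with 97 members) had 15 members (15.5%) higher in both test and 12 (12.4%) in both control tumors and a median of 0.02, or 0.09 without test 2 and -0.09 without test 1. Hdac7, a class IIa deacetylase, had 8 with 10795 and 12583 bp in control and 10550 and 8134 bp in test tumors, so both control tumors were higher. Kat6b, an acetyltransferase, had 10 with 10016, 9486, 9712 and 11201 bp, and the groups overlapped.

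The cytokine receptor list has receptors for cytokines of T helper 2 cells and also signalling genes such as Jak1. It held 46 members in 13 of 29 genes, with 9 (19.6%) on either side and a median of -0.10. Lifr, the LIF receptor, had 8 members (16195, 15267, 16534 and 12365 bp) and Ghr, the growth hormone receptor, 6 (10541, 8167, 10694 and 4429 bp), with overlap. Jak1, a kinase used by many cytokine receptors, had 6 with 4180 and 2141 bp in control and 5890 and 4321 bp in test tumors, so both test tumors were higher. Tnfrsf1b, taken up after its values were seen, had 4 of 4 members higher in both control tumors, with sums of 10363 and 10631 bp against 6058 and 1962 bp. The median of the list was 0.24 without test 2, 0.00 without control 1 and -0.36 without test 1.

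Of 19 genes the study discussed, 5 held 8 members. Srgn, the proteoglycan serglycin of blood and mesenchymal cells, held a region of 5632 bp at an untranslated exon and within 1 kb of another transcript start, covered over 5068 and 5005 bp in control and 3543 and 2848 bp in test tumors (log2 difference -0.66, SE 0.14, unadjusted p 0.00886 and adjusted p 0.973 in the limma fit). Fgfr1, an FGF receptor, held 1 in intron 2 of 17 with 3475, 4141, 3573 and 2167 bp. Cdh1, the E-cadherin gene, held 2 in intron 2 of 15, with 1025, 531, 1095 and 630 bp in the nearer and 1465, 1476, 1439 and 986 bp in the farther. Only the Srgn region and the farther Cdh1 region had both control tumors higher among these 4. Il4ra, the receptor chain for interleukins 4 and 13, held 3 members, of which a first-intron region 8.62 kb from the TSS had 1838 and 1871 bp in control and 1432 and 1175 bp in test tumors, and a region in the last coding part of the gene, 24.2 kb from the TSS, had 1908 and 1821 bp against 1942 and 2099 bp. These 2 went in opposite directions, and the remaining region overlapped. Rag1, disrupted in all of these hosts, held a coding-exon region of 357 bp with 276, 309, 357 and 231 bp. Csn2, Lalba, Muc1, Vim and Tslp were among the genes without a member.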

How the data were processed

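H3K27ac ChIP-seq was done on 2 control and 2 test tumors, and per the labels and the methods of the study the authors aligned reads to mm10 with BWA and called peaks with MACS2 per tumor against a matched input. The deposited lists hold 1 joined interval per line, with the smallest interval 155 bp and the smallest gap 201 bp, and no height or p-value. How intervals were cleaned is not given in the sources used here, and the 4 input libraries were not analysed here. Joining widens intervals, so covered length also depends on gaps between peaks.

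Tumors were grouped by the genotype in the labels, and replicate numbers follow accession order and pair nothing. Union regions were built over 19 autosomes. Covered length was fitted as log2 values with limma 3.58.1 (R 4.3.3, trended eBayes, two-sided, Benjamini-Hochberg over 34078 regions, call at adjusted p under 0.05), tested on simulated data, and group means were compared by exact permutation tests over tumors (scipy 1.17.1). Sequence was read from the RefSeq GRCm38.p6 genome with pyfaidx 0.9.0.4. The TSS was the 5′ end of the GENCODE gene record.

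The genes named were, besides the genes the study discussed, up to 5 members per direction with the largest log2 difference among members called, filled from members whose groups did not overlap and whose mean covered length was at least 1000 bp, the 8 genes with most members, the 5 densest genes of at least 20 kb, and up to 3 genes per list. A gene that this rule names is not reported here. Members and lists were chosen with earlier results of these data known. The X-linked genes of the lists were left out. Alternatives changed the joining distance, the smallest interval, the number of intervals per tumor, the TSS set, the centering and the tumors used.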

Additional observations from a re-analysis of the deposited data

How the results depend on the processing

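No region was called in any of 11 alternative limma fits, among them centering, quantile normalization and leaving out each tumor, and the smallest adjusted p was 0.175, without test 1. The 4 fits without a tumor take the spread from the group that kept both tumors and assume that the lone tumor varies alike. With only intervals of at least 500 bp, members numbered 7921, of which 1418 (17.9%) had higher coverage in both test and 1081 (13.6%) in both control tumors, beside 20.02% and 11.95% of all 22292 regions. Leaving out 1 tumor gave 3838 to 5691 members with non-overlapping higher test coverage and 3465 to 5909 with higher control coverage (28.2 to 41.8% and 25.4 to 43.4%, beside 32.0 to 43.1% and 23.8 to 39.9% of all regions), since 3 tumors overlap less often by construction. The mean difference per member turned to 37.8 bp without control 1 and 90.0 bp without test 2, over a range of -130 to 90.0 bp, and the difference in percent covered turned to 1.86 points without control 1 and 4.43 points without test 2, over a range of -6.38 to 4.43 points. The core was 40.4% of bases with intervals within 1 kb joined, 58.1% with intervals of at least 500 bp and 53.0 to 59.9% when 1 tumor was left out. AP-1 letters were in 25.9% of members over the whole core and 12.6% of windows at the union midpoint. With the starts of all transcripts 10378 members were left, 32.5% of them in first introns. Crediting members to every overlapping gene, a choice made after seeing the data like the left-out tumors for gene lists and sums, gave 5419 genes. No paired analysis was possible because the tumors came from separate mice and nothing in the labels pairs them. Depth is unknown, so counting error could not be given.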
